A study of Mus musculus with 8 samples.

Results

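Ephx1, Ephx2, Ahr, Arnt, Ahrr, Tiparp, Cyp1a1 and Cyp1b1 are the genes of the epoxide hydrolases and of the aryl hydrocarbon receptor (AHR) axis described here. A gene was taken where the array's annotation names it as the single gene of a probe set, and of several such probe sets the one that was brightest on average over the 8 arrays stands for the gene. All 8 genes were found among the 22180 tested, on 9 probe sets, of which 2 belong to Tiparp and 1 to each of the others. The genes were chosen by pathway around Ephx1, which was itself selected on its log2 difference between the genotypes in these arrays. The values of these genes between the genotypes are therefore given as a description, with intervals. Where the threshold set over all genes is named for them, it describes them too and tests nothing.

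The cells were CD103+ CD11b+ conventional dendritic cells (cDC), which bring intestinal antigen to the draining lymph nodes, sorted by flow cytometry from the mesenteric lymph nodes of male C57BL6 mice aged 8 weeks and fed control chow. The first group carried the hBcl-2 transgene, human BCL2 driven by the CD11c promoter (4 arrays, DChBcl-2), and the second was made up of wild-type littermates (4 arrays). The promoter drives the transgene in CD11c-expressing cells in general, not in this cDC subset alone. Each array was made from pooled material, 2 to 3 samples of a genotype, and n = 4 arrays per group throughout. Which animals entered which pool is not given, so the errors measure the spread between these pools. Because sorted cells were measured in bulk, fewer cells of a type and less RNA per cell cannot be told apart.

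Epoxide hydrolases open reactive epoxides by adding water. The microsomal enzyme, encoded by Ephx1, works on epoxides that cytochrome P450 enzymes make from aromatic compounds, and the soluble enzyme, encoded by Ephx2, mainly on epoxides of fatty acids. AHR is a transcription factor that waits in the cytosol with chaperones, binds dietary, microbial and pollutant ligands, enters the nucleus, pairs with ARNT and binds DNA elements with the core GCGTG. Cyp1a1, Cyp1b1, Ahrr and Tiparp are its textbook targets. The products of the last pair, the AHR repressor and a member of the poly-ADP-ribose polymerase family, dampen the receptor in turn. In the intestine AHR is best known for its part in innate lymphoid cells and in the answer to plant-derived indoles.

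Promoter sequences are shown for Ephx1, the gene that differed most here, and for the receptor's targets Cyp1a1, Ahrr and Tiparp. The windows hold the 250 bases before the annotated start, from RefSeq on GRCm38.p6, at chr1:181017570-181017819 on the minus strand for Ephx1, chr9:57697363-57697612 on the plus strand for Cyp1a1, chr13:74292332-74292581 on the minus strand for Ahrr and chr3:65528197-65528446 on the plus strand for Tiparp. Capitals mark GCGTG on either strand of the gene, so that a match on the opposite strand reads CACGC.
Ephx1: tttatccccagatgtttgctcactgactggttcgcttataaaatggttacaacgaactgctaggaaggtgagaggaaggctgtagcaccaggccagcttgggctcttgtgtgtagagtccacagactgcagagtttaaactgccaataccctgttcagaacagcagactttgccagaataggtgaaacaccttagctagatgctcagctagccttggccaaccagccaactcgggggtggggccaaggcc
Cyp1a1: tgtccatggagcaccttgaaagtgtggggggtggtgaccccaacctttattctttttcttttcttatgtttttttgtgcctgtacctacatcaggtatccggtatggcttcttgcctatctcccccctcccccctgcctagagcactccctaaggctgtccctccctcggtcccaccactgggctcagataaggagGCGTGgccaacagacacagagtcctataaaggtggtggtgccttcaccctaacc
Ahrr: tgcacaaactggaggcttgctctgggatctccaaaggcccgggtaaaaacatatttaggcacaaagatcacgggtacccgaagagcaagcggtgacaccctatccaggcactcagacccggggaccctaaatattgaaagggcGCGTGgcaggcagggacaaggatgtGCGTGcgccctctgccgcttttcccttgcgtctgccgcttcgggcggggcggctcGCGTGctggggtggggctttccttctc
Tiparp: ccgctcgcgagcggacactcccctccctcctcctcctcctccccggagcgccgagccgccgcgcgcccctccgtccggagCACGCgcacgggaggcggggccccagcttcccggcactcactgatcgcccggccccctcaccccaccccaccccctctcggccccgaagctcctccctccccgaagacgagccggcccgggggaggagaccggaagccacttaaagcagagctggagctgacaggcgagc
The Ephx1 window holds no GCGTG. The Cyp1a1 window holds 1, whose first base lies 54 bases before the start, the Ahrr window holds 3, whose first bases lie 107, 82 and 27 bases before it, and the Tiparp window holds 1 on the opposite strand, whose leftmost base lies 170 bases before it. Of the 6 genes with a window in the table, 5 hold the motif, the other two being Arnt and Cyp1b1 with 1 match each. Over all 32851 windows of this length, 28.2% hold it. The core of the antioxidant response element, TGACNNNGC, was found in the window of Arnt alone among the 6, against 10.2% of all windows. A match is a description of these letters, and elements further away, such as the known enhancer of Cyp1a1, lie outside the windows.

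Transgenic cDC had more Ephx1 than wild-type cDC, by 4.71-fold. Ephx1 gave log2 values of 7.64, 6.96, 7.54 and 6.94 on transgenic arrays 1 to 4, against 5.40, 5.06, 4.52 and 5.17 on wild-type arrays 1 to 4. Every transgenic array lay above every wild-type array, and the lowest transgenic value was 1.55 above the highest wild-type value. The means were 7.27 ± 0.37 in transgenic and 5.03 ± 0.37 in wild-type cDC (SD, n = 4 each). The difference was 2.24 (SE 0.22, 95% interval 1.75 to 2.72 on the log2 scale), or 3.36-fold to 6.61-fold. Only 5 of the 22180 genes had a larger rise. The wild-type level lay below that of the median gene, 5.32, in a part of the scale that background can fill, and the size of the fold is therefore uncertain. The spread was alike in both groups, with a transgenic SD over wild-type SD of 1.00.

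Ephx2, the soluble hydrolase, was dim and variable in both groups. It gave 5.21, 5.05, 6.05 and 4.84 on transgenic arrays and 4.30, 5.03, 5.39 and 4.56 on wild-type arrays. Only transgenic array 3 lay above every wild-type array, so the groups overlapped. The means were 5.29 ± 0.53 in transgenic and 4.82 ± 0.49 in wild-type cDC (SD, n = 4 each), a difference of 0.47 (SE 0.29) with an interval of -0.17 to 1.11. The interval reaches from a small fall to a 2.15-fold rise, which ends below the lower bound for Ephx1.

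**Figure D1:**
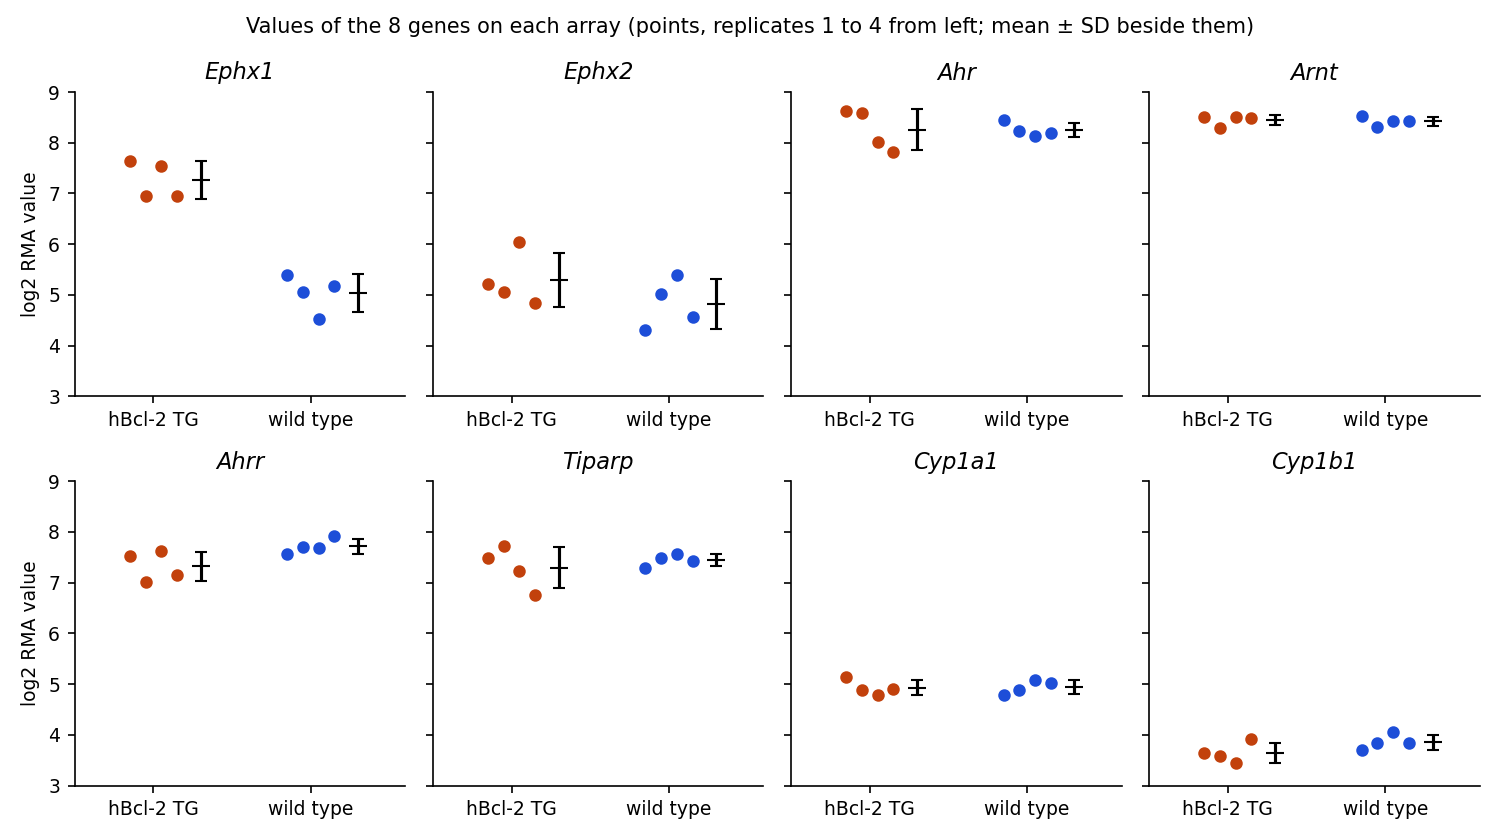
Log2 RMA values (vertical axis) of the 8 genes on each array, transgenic in orange at the left of each panel and wild type in blue at the right. Points are arrays in the order of their replicate numbers, and the black mark beside them is the mean with its SD. For Ephx1 the lowest transgenic array is at 6.94 and the highest wild-type array at 5.40, and for each of the other genes the groups overlap.

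The receptor itself had nearly the same mean in both genotypes but was more uneven among the transgenic pools. Ahr gave 8.62, 8.58, 8.01 and 7.82 on transgenic arrays, against 8.44, 8.23, 8.13 and 8.20 on wild-type arrays. Transgenic arrays 1 and 2 lay above every wild-type array, and transgenic arrays 3 and 4 lay below every one. The means were 8.26 ± 0.40 in transgenic and 8.25 ± 0.13 in wild-type cDC (SD, n = 4 each), with a difference of 0.0042 (SE 0.18, interval -0.41 to 0.41). The transgenic SD was 2.98 times the wild-type SD. The median gene had a ratio of 1.24, 62.1% of genes had the larger SD in the transgenic group, and 11.9% of genes had a higher ratio than Ahr.

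Arnt, the partner with which AHR binds DNA, was the steadiest of the 8 genes in both groups. It gave 8.50, 8.29, 8.50 and 8.48 on transgenic arrays and 8.52, 8.31, 8.43 and 8.42 on wild-type arrays. All transgenic values but that of array 2, at 8.29, lay within the wild-type range. The means were 8.44 ± 0.099 in transgenic and 8.42 ± 0.087 in wild-type cDC (SD, n = 4 each). The difference was 0.022 (SE 0.10), and the interval, -0.21 to 0.25, leaves room for a rise of at most 1.19-fold.

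Ahrr, which encodes the repressor that competes with AHR for ARNT, was lower on 3 of 4 transgenic arrays than on any wild-type array. It gave 7.52, 7.01, 7.62 and 7.15 on transgenic arrays, against 7.57, 7.70, 7.68 and 7.93 on wild-type arrays. These were transgenic arrays 1, 2 and 4, and transgenic array 3 overlapped with the wild type. The means were 7.32 ± 0.29 in transgenic and 7.72 ± 0.15 in wild-type cDC (SD, n = 4 each). The difference was -0.39 (SE 0.15, interval -0.74 to -0.053, not adjusted over genes).

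Tiparp, which marks AHR for breakdown, was more uneven among the transgenic pools on the brighter of its probe sets and less uneven on the other. It gave 7.48, 7.72, 7.23 and 6.77 on transgenic arrays and 7.28, 7.48, 7.56 and 7.42 on wild-type arrays. Transgenic array 2 lay above every wild-type array, and transgenic arrays 3 and 4 lay below every one. The means were 7.30 ± 0.41 in transgenic and 7.44 ± 0.12 in wild-type cDC (SD, n = 4 each), a difference of -0.14 (SE 0.19). The transgenic SD was 3.42 times the wild-type SD, a ratio exceeded by 8.85% of all genes. The second Tiparp probe set differed in sign, with 6.92, 7.01, 6.80 and 7.39 on transgenic arrays and 6.89, 6.37, 6.52 and 7.20 on wild-type arrays, a difference of 0.29 (SE 0.20). Its transgenic SD was 0.68 times its wild-type SD. On that probe set transgenic array 4 was the highest of the transgenic arrays, whereas on the first it was the lowest.

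The P450 genes, whose products oxidise aromatic compounds and which AHR ligands induce in many tissues, were dim in both groups. Cyp1a1 gave 5.14, 4.88, 4.79 and 4.90 on transgenic arrays and 4.78, 4.89, 5.08 and 5.01 on wild-type arrays. The groups overlapped almost wholly, with means of 4.93 ± 0.15 in transgenic and 4.94 ± 0.13 in wild-type cDC (SD, n = 4 each) and a difference of -0.013 (SE 0.12, interval -0.28 to 0.25). Cyp1b1 gave 3.64, 3.58, 3.44 and 3.92 on transgenic arrays and 3.69, 3.84, 4.05 and 3.84 on wild-type arrays. Transgenic arrays 1 to 3 lay below every wild-type array and array 4 did not. Its difference was -0.21 (SE 0.13, interval -0.50 to 0.080). At these levels a change of either P450 gene could be hidden in the background.

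**Figure D2:**
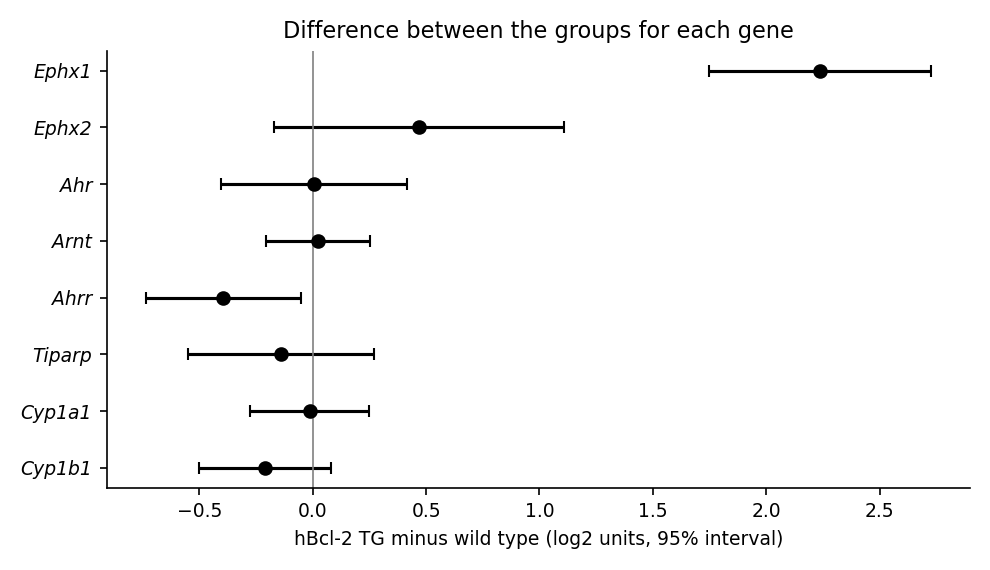
Difference of the group means, transgenic minus wild type, in log2 units (horizontal axis) for each of the 8 genes, with 95% intervals from limma. Ephx1 stands at 2.24, with an interval from 1.75 to 2.72, while the other genes lie between -0.39 for Ahrr and 0.47 for Ephx2.

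Of the 8 genes, Ephx1 was higher past the threshold of an adjusted p of 0.05 in limma's fit over all genes, and 0 were lower. Over all genes 1.69% passed in either direction, 0.839% higher and 0.848% lower. Groups that did not overlap were found for Ephx1 alone among the 8, against 8.94% of all genes. As the genes were chosen with this comparison known, nothing is read from these counts. The 8 differences were split evenly, 4 positive and 4 negative, with a median of -0.0045, against -0.0016 for all genes.

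Past the threshold, other genes known to respond to AHR showed 1 rise and 1 fall. At an unadjusted p below 0.05, the background for the counts given for each list, stood 13.2% of all genes. Of 19 listed, 15 were measured on a probe set of their own, 13 did not pass, and the median difference was 0.042. Of the 15 differences 8 were positive and 7 negative. By limma 6 of the 15 had an unadjusted p below 0.05 (13.2% of all genes). Of these, Kit and Nfe2l2 were higher, and Socs2, Slc7a5, Il22 and Ido1 were lower in transgenic cDC. Slc7a5 differed by -1.41 (SE 0.49) and Ido1 by -0.37 (SE 0.16). Il22 differed by -0.77 (SE 0.29) and was dim, with means of 2.48 in transgenic and 3.25 in wild-type cDC. Kit, the receptor for stem cell factor and an AHR-dependent gene in mouse skin immune cells, had 9.84, 9.76, 9.56 and 9.34 on transgenic arrays, against 8.71, 8.64, 8.83 and 8.63 on wild-type arrays. It rose by 0.92 (SE 0.13; limma adjusted p = 0.0100). Socs2, an inhibitor of cytokine signalling that AHR ligands induce in dendritic cells, had 9.74, 9.68, 9.72 and 9.50 on transgenic arrays, against 10.52, 10.75, 10.33 and 10.44 on wild-type arrays. It fell by 0.85 (SE 0.12; limma adjusted p = 0.0105). For Kit and Socs2 the groups did not overlap, and the directions were opposite. Nqo1, a quinone reductase induced by both AHR and NRF2, was at 4.56 ± 0.19 in transgenic and 4.38 ± 0.31 in wild-type cDC (SD, n = 4 each; limma adjusted p = 0.725).

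Among genes of the receptor complex and its coactivators 0 of 8 measured passed in limma, with 1 at an unadjusted p below 0.05 and a median of -0.0044. The highest statistic belonged to Ptges3, which encodes the cochaperone p23 (difference 0.37, SE 0.17), and the lowest to Ncoa2, a coactivator (-0.31, SE 0.11). Among 15 measured relatives in the bHLH-PAS family, which share the DNA-binding and dimer-forming parts of AHR and ARNT, 0 passed in limma and 3 had an unadjusted p below 0.05 (13.2% of all genes). Per1, a clock gene, was highest by statistic (0.36, SE 0.13) and Epas1, which encodes HIF-2 alpha, lowest (-0.22, SE 0.15).

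Of the listed enzymes that make or open epoxides, beside Ephx1, none passed. Of 4 relatives of the epoxide hydrolases 0 passed in limma, with 1 at an unadjusted p below 0.05. That 1 was Lta4h, the leukotriene A4 hydrolase, which opens the epoxide of a lipid mediator. It had 7.89, 8.14, 7.65 and 7.50 on transgenic arrays and 7.31, 7.39, 7.26 and 7.36 on wild-type arrays. Its groups did not overlap, with a difference of 0.47 (SE 0.14; limma adjusted p = 0.151). Ephx3, a further epoxide hydrolase, had 5.35 ± 0.036 in transgenic and 5.43 ± 0.17 in wild-type cDC (SD, n = 4 each). Of 14 measured P450 genes listed for fatty acid epoxides, 0 passed in limma and 0 had an unadjusted p below 0.05. Their differences by lowest and highest statistic were -0.18 (SE 0.13) for Cyp2c37 and 0.20 (SE 0.12) for Cyp2c54. Members of the Cyp2c family are near-identical and can share probes, so single values are uncertain.

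Enzymes that conjugate oxidised compounds did not pass either. Of 15 measured, 0 passed in limma and 1 had an unadjusted p below 0.05, with a median of 0.013. That 1 was Gstp1, a glutathione transferase (0.48, SE 0.19; limma adjusted p = 0.314), and Gstm2, another transferase, had the lowest statistic (-0.34, SE 0.17). Its close relatives can share probes.

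Among 14 xenobiotic receptors and genes of NRF2, the transcription factor of the antioxidant response, 1 fell and 0 rose. Gclc, the catalytic subunit of glutathione synthesis, had 9.53, 9.58, 9.25 and 9.17 on transgenic arrays, against 10.14, 10.12, 10.24 and 10.58 on wild-type arrays. The groups did not overlap, and Gclc fell by 0.89 (SE 0.15; limma adjusted p = 0.0182). It did not pass without wild-type array 1 or wild-type array 3 (limma adjusted p = 0.0503 and 0.0594). Nfe2l2, which encodes NRF2 itself and is listed as an AHR target too, was at 10.98 ± 0.24 in transgenic and 10.44 ± 0.25 in wild-type cDC (SD, n = 4 each) and did not pass (difference 0.53, SE 0.16; limma adjusted p = 0.145). Both groups of Nfe2l2 overlapped through wild-type array 1, at 10.82. Beside Gclc and Nfe2l2, the genes at an unadjusted p below 0.05 were Srxn1 (difference -0.49, SE 0.16), Gclm (-0.36, SE 0.14) and Txnrd1 (-0.36, SE 0.13). They did not pass in limma, and of them Srxn1 alone had groups that did not overlap.

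Genes listed for tryptophan breakdown, transport and other uses had a median of -0.21, and 0 of 14 measured passed in limma. At an unadjusted p below 0.05 by limma stood 5 (13.2% of all genes), among them Wars, a tRNA synthetase gene, and the transporter gene Slc7a5. Tryptophan breakdown makes or spends AHR ligands, but not every listed gene takes part in it. Kynu, which encodes kynureninase, had 8.64, 8.69, 8.84 and 8.13 on transgenic arrays, against 9.21, 9.10, 9.40 and 9.17 on wild-type arrays. Its groups did not overlap, and the difference was -0.65 (SE 0.16; limma adjusted p = 0.0755). Kyat1, a kynurenine aminotransferase, differed by 0.68 (SE 0.17, limma adjusted p = 0.0865), and its groups did not overlap either. Slc7a5, an amino acid transporter that also carries kynurenine, was picked out after its values were seen. It had 8.73, 8.33, 7.45 and 5.93 on transgenic arrays, against 9.17, 8.81, 8.74 and 9.39 on wild-type arrays, and did not pass (difference -1.41, SE 0.49). Transgenic arrays 3 and 4, where Slc7a5 was lowest, were also those with Ahr below every wild-type array. A link between Slc7a5 and Ahr was not tested, and transgenic array 4 also differed most from its group.

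**Figure D3:**
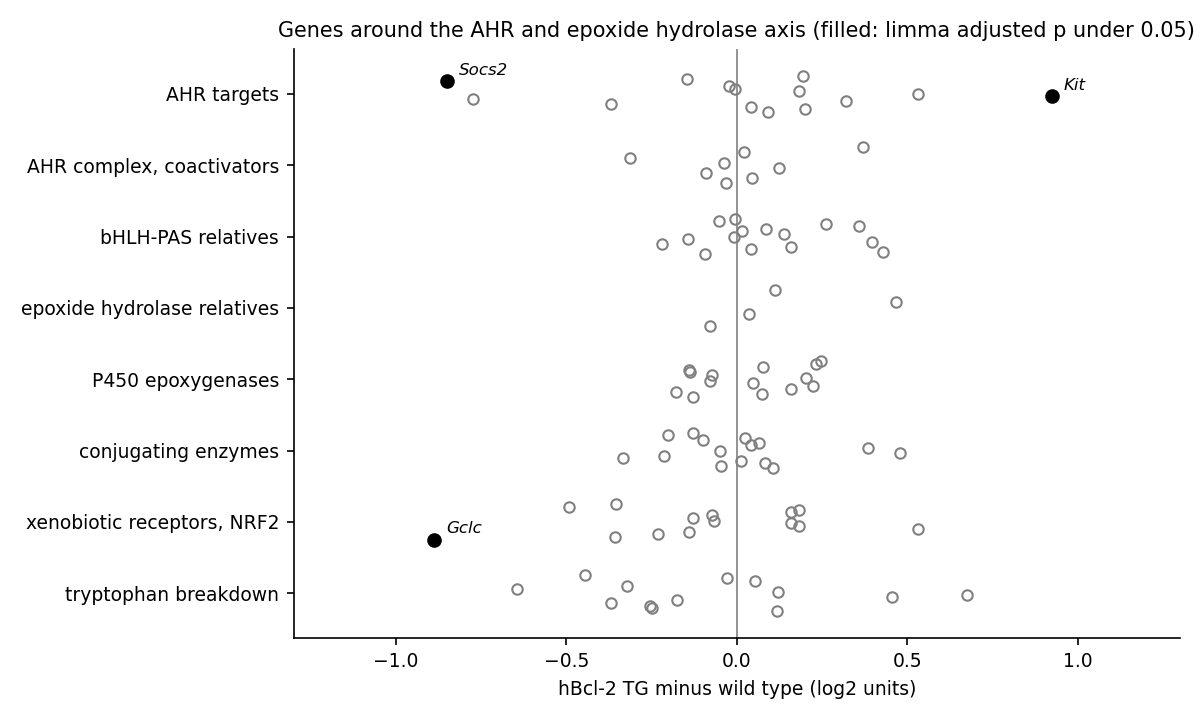
Differences, transgenic minus wild type in log2 units (horizontal axis), of the measured genes of the 8 lists, a point for each gene and a row for each list. Slc7a5, at -1.41, lies beyond the left end of the axis and is not shown in either of its rows. Filled points passed limma's threshold over all genes: Kit at 0.92, Socs2 at -0.85 and Gclc at -0.89.

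Over these 8 lists together 95 of 110 genes were measured, of which 3 passed, 1 higher and 2 lower (3.16%, against 1.69% of all genes), and 19 of the 95 were at an unadjusted p below 0.05 by limma (13.2% of all genes). The other genes share their probe sets with further genes or were not analysed here.

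Genes with a profile like that of Ephx1 over the 8 arrays were sought by the root mean square difference of log2 values centred on each gene's mean. The nearest were Sox4 (0.32), Scara3 (0.42), Rapgef5 (0.43), Gbp2b (0.45) and an immunoglobulin kappa variable segment (0.45), against a spread of Ephx1 about its own mean of 1.16. Sox4 encodes a transcription factor, Scara3 a scavenger receptor-like protein, Rapgef5 an exchange factor for small GTPases and Gbp2b a guanylate-binding protein. Sox4, Rapgef5 and Scara3 followed Ephx1 in having transgenic arrays 1 and 3 above transgenic arrays 2 and 4. For Scara3 the margin was narrow, with 1.07 on array 1 against 1.05 on array 4. For Ephx1 this distance mostly follows the difference between the genotypes. That difference was 2.24 for Ephx1 and at most 0.47 for any other member, so no other member could be near it by this measure. The genes nearest to Ahr were Slc22a18 (0.066), Gcc1 (0.082), Hspd1 (0.096), Ikzf5 (0.10) and Cenpb (0.11), against a spread of Ahr of 0.26.

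**Figure D4:**
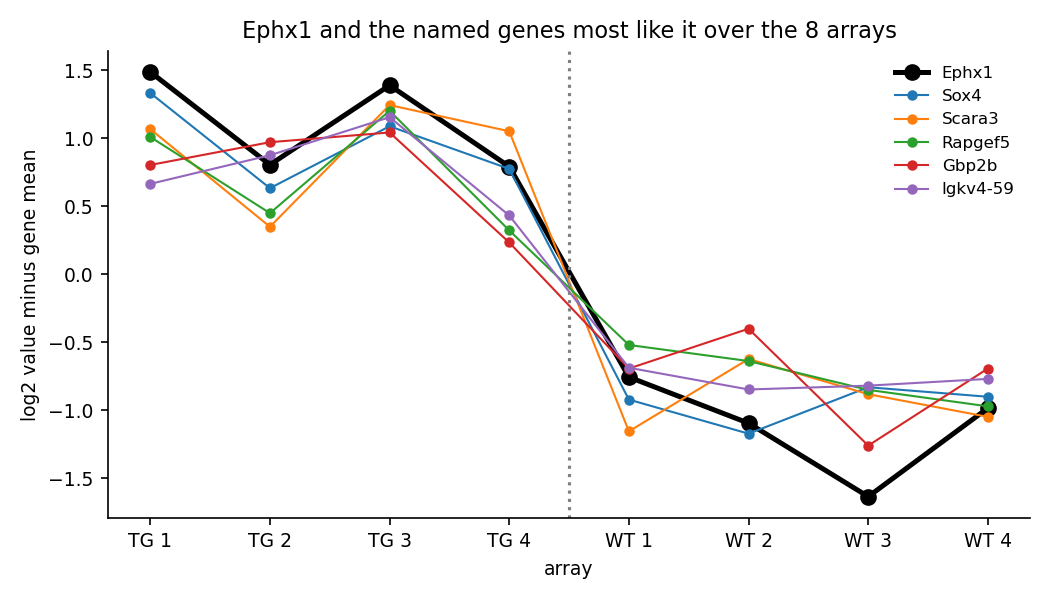
Log2 value minus the gene's own mean over the 8 arrays (vertical axis) on each array, transgenic arrays left of the dotted line and wild-type arrays right of it. Ephx1 is the thick black line, from 1.49 on transgenic array 1 to -1.64 on wild-type array 3, and the thin lines are the 5 named genes most like it.

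None of the measured genes next to Ephx1 on chromosome 1 passed. Of the 10 nearest protein-coding genes measured, 5 on each side in the order of GRCm38.p6, 0 passed in limma and 1 had an unadjusted p below 0.05, near the 13.2% of all genes. The direct neighbour Tmem63a was at 6.68 ± 0.60 in transgenic and 6.43 ± 0.16 in wild-type cDC (SD, n = 4 each; difference 0.25, SE 0.25). Cnih4, a cargo receptor of the secretory pathway, had the lowest p (difference 0.57, SE 0.12; limma adjusted p = 0.0514). These neighbours were chosen after the values of Ephx1 were known.

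The sorted cells carried genes of cDC in both groups. Flt3, the growth factor receptor of dendritic cells, was at 10.74 ± 0.32 and Ccr7, the receptor for migration to lymph nodes, at 13.06 ± 0.084 in transgenic cDC, against 11.11 ± 0.11 and 12.99 ± 0.072 in wild-type cDC (SD, n = 4 each). Of the sorting markers, Itgae (CD103) was at 5.40 ± 0.32 in transgenic and 5.66 ± 0.19 in wild-type cDC, and Itgam (CD11b) at 5.58 and 5.57, all dim. Of 7 cDC markers 0 passed in limma, with 4 negative and 3 positive differences. By limma 3 had an unadjusted p below 0.05 (13.2% of all genes), all of them lower in transgenic cDC. These were the cDC transcription factor Zbtb46 (-0.42, SE 0.16), Flt3 (-0.37, SE 0.16) and H2-Ab1 (-0.25, SE 0.11). For Flt3 and H2-Ab1 the groups did not overlap. Zbtb46 had the lowest statistic and Sirpa the highest (0.25, SE 0.15). The human transgene has no probe set here that could check the genotype. Transgenic array 4 differed most from its group, its mean correlation with those arrays being 0.970, against 0.976 to 0.979 for the other transgenic arrays and 0.983 to 0.985 for the wild-type arrays. Without it the difference of Ephx1 was 2.35, that of Ahr was 0.15 and that of Tiparp was 0.036.

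The mean log2 level of 7 macrophage markers was 6.32 to 6.68 on transgenic arrays and 6.15 to 6.27 on wild-type arrays. On transgenic arrays 1 to 4 it was 6.48, 6.68, 6.32 and 6.45, and Ephx1 there was at 7.64, 6.96, 7.54 and 6.94. Adgre1, which encodes F4/80, was the 1 of 7 that rose (7.67, 7.67, 7.17 and 7.13 on transgenic arrays, against 6.43, 6.17, 5.66 and 6.24 on wild-type arrays; difference 1.29, SE 0.19; limma adjusted p = 0.0128). Without Adgre1 the mean was 6.17 to 6.52 on transgenic and 6.15 to 6.27 on wild-type arrays, which overlap. Of the other 6, 4 had positive differences, 0 passed in limma and 1, Cd68, had an unadjusted p below 0.05. Cd68, a lysosomal protein of phagocytes, was at 10.18 in transgenic and 9.85 in wild-type cDC, C1qc at 5.67 and 5.37, C1qb at 6.55 and 6.44, and Mertk at 4.73 and 4.66. C1qa was at 6.27 and 6.44, with groups that did not overlap, and Fcgr1 was at 4.55 and 4.58. Bst2, 1 of 5 plasmacytoid dendritic cell markers, also rose (0.76, SE 0.13, limma adjusted p = 0.0204). The others did not pass: Siglech (0.68, SE 0.36), Ly6d (0.35, SE 0.27), Ccr9 (0.34, SE 0.32) and Tcf4 (-0.21, SE 0.18). The mean of the 5 plasmacytoid markers was 7.14 to 8.09 on transgenic and 6.76 to 7.20 on wild-type arrays, highest on transgenic array 2. The part of these cells in the Ephx1 values was not tested. None of the markers of monocytes, B cells, T cells, NK or innate lymphoid cells, stroma, epithelium or Langerhans cells passed in limma, with 2 monocyte genes and 1 stromal gene at an unadjusted p below 0.05 and 0 in the other lists, and their mean levels overlapped between the groups. Of 6 monocyte markers 4 had positive and 2 had negative differences. Those at an unadjusted p below 0.05 by limma were Cd14 (difference 0.74, SE 0.26) and Ly6c2. The others were Ccr2 (0.53, SE 0.50), Fcgr3 (0.012, SE 0.21), Lyz2 (-0.076, SE 0.26) and S100a8 (-0.10, SE 0.11). Ly6c2 had 8.28, 10.38, 5.81 and 7.11 on transgenic arrays, against 6.04, 5.46, 6.83 and 6.02 on wild-type arrays, a difference of 1.81 (SE 0.77). For Ly6c2, transgenic arrays 1, 2 and 4 lay above every wild-type array, and transgenic array 3 lay below 3 of the 4. The part of monocytes in the Ephx1 values was not tested either.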

How the data were processed

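The deposited log2 values per probe set came from the authors' use of RMA and Partek (versions unstated), per the submitters' processing notes. RMA subtracts background, equalises the distributions of arrays and combines each set's probes, so a shift of all genes one way would not be seen, and folds of dim genes are uncertain. Per the labels' protocols, 2.5 ng of RNA was amplified as whole transcriptome and labelled with biotin. Filters are not stated, and the genome build is not given in the sources used here. Arrays have no read depth, and their number limits the precision.

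Of 34390 probe sets, 23521 name 1 gene in the platform's annotation, 1814 several and 9055 none; the first kind gave 22180 genes. Older list symbols were matched through RefSeq's gene table. Transgenic minus wild type was fitted over all genes in R 4.3.3 with limma 3.58.1 (lmFit, eBayes), p-values were adjusted by Benjamini-Hochberg at a two-sided threshold of 0.05, and the procedure was tested on simulated data. Errors are the SD over arrays or the moderated SE. No set test was run.

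The members, lists, tests and alternatives were chosen with earlier results of these data known. All members are named. From each of the 8 lists and the cDC, sorting, macrophage, monocyte and plasmacytoid markers, up to 4 genes past the threshold are named. So are those with the highest and lowest moderated statistic. From the remaining marker lists no gene is named. Other genes were added after their values were seen. Nearest genes were the 5 with the smallest distance, predicted genes, clones, small RNAs and olfactory receptors left aside. Promoter windows came from RefSeq on GRCm38.p6. The alternatives were a trended variance, a filter on dim genes, quantile normalization again, median centring, the mean over probe sets, the replicate number as a block, array weights with statmod 1.5.0 and leaving out each array. Figures used matplotlib 3.10.9 in Python 3.11.15.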

Additional observations from a re-analysis of the deposited data

Results flagged for a closer look

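Arnt on transgenic array 2, at 8.29, lay apart from the other transgenic arrays, at 8.48 to 8.50, by more of the group's range than 4 values should by chance. It was the 1 flag among 16 groups of 4 arrays examined, and chance flags about 1 in 20. The distance was small, 0.18 on the log2 scale, and the lowest wild-type array was at 8.31.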

How the results depend on the processing

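The difference of Ephx1, which was selected on this contrast, ran from 2.06 to 2.36 over 15 alternatives. Among the genes that were not called, Ahr ran from -0.12 to 0.15, Arnt from -0.015 to 0.071, Cyp1a1 from -0.083 to 0.034 and Tiparp from -0.28 to 0.073, the last with the mean over its probe sets. Ahrr stayed negative, at -0.49 to -0.29, as did Cyp1b1, at -0.30 to -0.14, and Ephx2 stayed positive, at 0.21 to 0.66. With only genes at or above the median gene, Ephx2, Cyp1a1 and Cyp1b1 were not tested. The 374 genes called, 186 of them higher, became 534 with array weights (283 higher), 466 with the filter on dim genes, 267 with median centring and 187 with the replicate block and ran from 106 to 379 when 1 array was left out: 235, 187 and 246 without transgenic arrays 1, 2 and 3, and 106, 115, 123 and 133 without wild-type arrays 1 to 4. Same-numbered arrays did not deviate together over all genes (correlations -0.032 to 0.079), and 1 of 4 transgenic arrays correlated best with its own number. A pairing that touches few genes would not show in this check, so it cannot settle whether the numbers pair the arrays. Kit and Socs2 passed under every alternative, with adjusted p of 0.00275 to 0.0411 and 0.00569 to 0.0415 in limma. Gclc did not pass with the replicate block or without wild-type array 1 or 3 (adjusted p = 0.0716, 0.0503 and 0.0594 in limma; range over the alternatives 0.0130 to 0.0716). With array weights 1 gene of the tryptophan list rose. Other list counts were as reported. The cause of these changes was not tested.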
